A study of Mus musculus with 16 samples.

Results

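The glutathione and antioxidant defence genes described here are the 10 genes Nfe2l2, Slc7a11, Gclc, Gclm, Gstm1, Prdx6, Srxn1, Gpx1, Gpx4 and Hmox1, found by their symbols among the 24060 genes of each table. All 10 were listed in all 16 libraries and passed the filter on low values in every comparison. They were measured by RNA sequencing of the somatosensory cortex of C57BL/6J mice of the genotype Aldh1l1CreERT2-RiboTag, aged 3 months, in which tamoxifen given at 2 months of age makes cells with an active Aldh1l1 promoter, mainly astrocytes, carry an HA tag on the ribosomal protein Rpl22. The immunoprecipitate (IP) is RNA pulled down with the tagged ribosomes, and INPUT is RNA of the cleared lysate of all cell types. Stressed mice swam for 20 min and then rested for 90 min in the home cage, whereas naïve mice stayed in the home cage, and each combination of fraction and treatment has 4 libraries. All mice carried the transgenes and received tamoxifen, and no group lacked Cre. The methods state that tissue of each animal was homogenized by itself, and place the experiments 2 weeks after the last injection, where the series description gives 4 weeks. The methods give 4 males and 4 females. Which IP and INPUT libraries came from one mouse, and the sex of each mouse, are not given in the labels.

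Glutathione is a tripeptide that cells use to reduce peroxides and to tag reactive compounds, and in the brain astrocytes make much of it and supply precursors that neurons take up for their own synthesis. Its synthesis is limited by cystine import and by the enzyme glutamate-cysteine ligase. The transcription factor NRF2, the product of Nfe2l2, binds antioxidant response elements near many genes of this system and is held at low protein levels by KEAP1, so its activity is set largely after translation and is not read from its own mRNA.

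The number of reads assigned to genes ran from 16392876 to 25814364 with a median of 21167241. Levels are in CPM, the reads on a gene per 1000000 reads on all genes of its library, and 3 reads were at most 0.183 CPM. The lowest count of any of the 10 genes in any library was 56 reads, for Hmox1. The summed level of 8 astrocyte markers was 91824 to 96075 CPM in naïve IP and 5945 to 6324 CPM in naïve INPUT, and all 8 were higher in IP. All 6 neuron, 6 oligodendrocyte, 6 microglia and 6 endothelial markers were lower in IP, with a residue, for example 429 to 553 CPM for the neuron list in naïve IP against 9884 to 10322 CPM in naïve INPUT. Of 5 mural markers, 1 was higher and 3 lower in naïve IP, and the same counts held for 5 meningeal fibroblast markers. The choroid plexus list reached 126 CPM in naïve IP replicate 2 and at most 17.5 CPM in any other library. The erythroid list stood at 11.0 to 21.5 CPM in naïve IP and 1.30 to 3.36 CPM in naïve INPUT, with the single gene tested, Alas2, carrying it.

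The antioxidant response element is shown where it was found because it is the sequence through which NRF2 acts on members of this group. Its core, TGACNNNGC, was searched on both strands of the RefSeq promoter windows of GRCm38.p6, which run from 250 bases before to 50 bases after a gene's start. Windows were at hand for 7 of the 10 genes, 11 windows in all, and 3 of them held the core, one each at Nfe2l2, Srxn1 and Gclm. Of all 32851 windows, 4071 (12.4%) held it. Windows for Gclc, Prdx6 and Hmox1 were not used here. The capitals below mark the 9 letters of the core as read along the gene's own strand, with 30 bases shown for each.
Nfe2l2 (chr2:75704884-75704913, minus strand, core at −240 to −232 from the start, on the strand of the gene): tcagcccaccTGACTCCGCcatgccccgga
Srxn1 (chr2:152105542-152105571, plus strand, core at 29 to 37 after the start, on the other strand): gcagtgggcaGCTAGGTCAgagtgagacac
Gclm (chr3:122245413-122245442, plus strand, core at −134 to −126 from the start, on the other strand): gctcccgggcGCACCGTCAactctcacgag
The 3 genes did not share one pattern between IP and INPUT, as given below, and a match of letters is no measurement of binding.

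Per length, 2 genes stood far above the rest in astrocyte ribosome-bound RNA. In naïve IP, Gstm1 had 535 ± 18.8 and Prdx6 188 ± 7.67 CPM per kb of exon (SD, n = 4), followed by Slc7a11 at 33.6 ± 2.66, Nfe2l2 at 28.3 ± 2.28 and Gclc at 23.3 ± 0.990 CPM per kb. Gclm (11.8), Srxn1 (11.2), Gpx1 (8.73) and Gpx4 (7.42) came next, and Hmox1 was lowest at 4.59 CPM per kb. The ranges of Slc7a11 and Nfe2l2 overlapped, as did those of each neighbouring pair from Gclm to Gpx4, so these orders were not separated by the libraries. In naïve INPUT the order was another one, with Gstm1 first at 61.4 ± 3.26 CPM per kb, then Srxn1 at 37.1 ± 1.02, Gpx1 at 36.5 ± 2.94, Prdx6 at 25.4 ± 1.43, Gclc at 22.0 ± 1.33, Gpx4 at 14.1 ± 1.36, Slc7a11 at 5.48 ± 0.395, Gclm at 4.61 ± 0.434, Nfe2l2 at 3.96 ± 0.209 and Hmox1 at 2.24 ± 0.420. Srxn1 and Gpx1 overlapped there, and so did Slc7a11, Gclm and Nfe2l2, each with the next. The stressed groups gave the same order as the naïve group in each fraction. The exon length is the union over annotated transcripts; with the longest transcript instead, Gclm, Gpx4, Gpx1 and Srxn1 followed each other in naïve IP at 13.3, 12.9, 11.7 and 11.2 CPM per kb, and Prdx6 stood at 353 CPM per kb. The same length changed the order in naïve INPUT to Gstm1 (70.2), Gpx1 (49.0), Prdx6 (47.6), Srxn1 (37.2), Gpx4 (24.5), Gclc (24.2), Slc7a11 (8.27), Nfe2l2 (6.08), Gclm (5.19) and Hmox1 (2.51 CPM per kb).

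**Figure D1:**
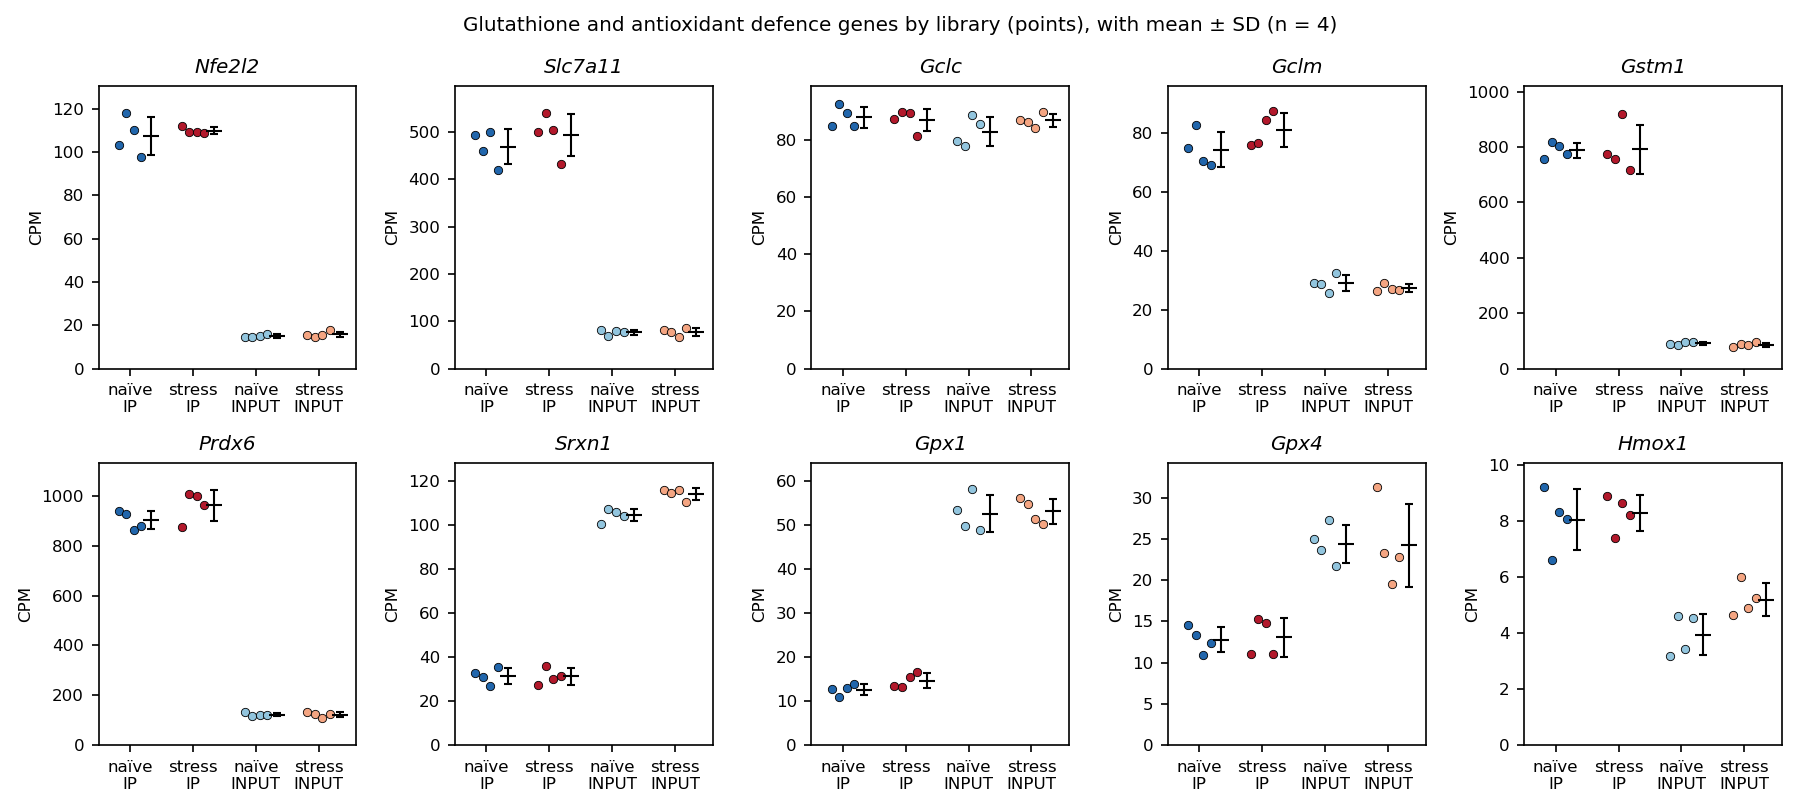
CPM of each of the 10 genes (vertical axes, each starting at 0) in IP and INPUT of naïve and stressed mice (4 libraries each), with points for libraries and bars for the mean ± SD. In naïve mice, 6 genes sit higher in IP than in INPUT without overlap, Srxn1, Gpx1 and Gpx4 sit lower, and Gclc overlaps. Stressed and naïve points of one fraction overlap, except those of Srxn1 and Hmox1 in INPUT.

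The next comparison asks which of these genes are carried by the tagged astrocyte ribosomes above or below their share of whole cortex RNA. In naïve mice, 6 of the 10 were higher in IP (Gstm1, Prdx6, Nfe2l2, Slc7a11, Gclm and Hmox1), 3 were lower (Gpx4, Srxn1 and Gpx1) and Gclc passed in neither direction. Of all 13339 genes tested, 23.7% were higher and 64.0% lower at the same threshold, which was an adjusted p under 0.05 from limma with Benjamini-Hochberg adjustment. The median log2 ratio of the 10 genes was 1.19, and that of all genes tested was −0.64. Beside it, the 10 most abundant genes took 19.1% ± 0.342 of reads in naïve IP and 3.78% ± 0.0499 in naïve INPUT. In 9 of the 10 genes the IP and INPUT libraries did not overlap, as in 83.7% of all genes. Relative to the median of all genes, 7 of the 10, Gclc among them, lay above it and 3 below. When libraries were rescaled by the median ratio, which sets that median near 0, the split of all genes moved from 3158 higher and 8540 lower to 5599 and 5635, and that of the 10 genes to 7 and 3. A ratio of IP to INPUT compares ribosome-bound RNA of one cell type with total RNA of all, so cell type and ribosome binding cannot be told apart in it, nor can fewer cells of a type and less RNA per cell.

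Nfe2l2 (chromosome 2 of GRCm38, 75675513 to 75704641) had 103, 118, 110.2 and 98.0 CPM in the naïve IP libraries and 14.4, 14.6, 15.0 and 16.2 CPM in naïve INPUT. The groups did not overlap, and the log2 ratio was 2.83 (standard error 0.07, adjusted p = 2.537e-13, limma with Benjamini-Hochberg adjustment). In stressed mice it had 112, 109, 109 and 109 CPM in IP and 15.4, 14.6, 15.4 and 17.7 CPM in INPUT, again far apart, with a log2 ratio of 2.80. Keap1, the adaptor that directs NRF2 to degradation, was lower in IP, with 41.6 ± 1.58 CPM in naïve IP and 80.6 ± 7.21 CPM in naïve INPUT, a log2 ratio of −0.95 that was −0.31 after median ratio scaling and −0.41 after quantile normalization and passed in both. Of the 11 genes of the NRF2 control list, 10 were tested, 1 (Nfe2l2 itself) was higher and 6 were lower in naïve IP, with a median of −0.56, and the same list had 5 higher and 3 lower after median ratio scaling and 4 higher and 5 lower after quantile normalization. The lowest was Mafg, which encodes a small MAF partner of NRF2, at −1.58.

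Slc7a11 (chromosome 3, 49892526 to 50443614), the cystine-glutamate exchanger subunit that supplies cysteine for glutathione, had 494, 459.6, 500.4 and 419.9 CPM in naïve IP. In naïve INPUT it had 81.6, 68.8, 78.7 and 76.2 CPM, so every IP library was above every INPUT library. The log2 ratio was 2.62 (standard error 0.07, adjusted p = 3.351e-13, limma with Benjamini-Hochberg adjustment). In stressed mice the IP libraries held 500.0, 539.7, 504 and 432 CPM and the INPUT libraries 81.4, 77.7, 66.7 and 86.5 CPM, a log2 ratio of 2.66. Its heavy-chain partner Slc3a2 had a log2 ratio of 1.60 in naïve mice. Pseudogenes and an antisense transcript, none of them in the tables, lie within or across the span of the gene. Whether they overlap its exons was not determined, and whether counting used strand is not given in the sources used here.

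The 2 subunits of glutamate-cysteine ligase differed from each other. Gclc (chromosome 9, 77754535 to 77794485), the catalytic subunit, had 84.8, 92.4, 89.2 and 84.8 CPM in naïve IP against 79.7, 77.7, 88.6 and 85.3 CPM in naïve INPUT. These ranges overlapped, and the log2 ratio was 0.09 (95% confidence interval −0.04 to 0.21, adjusted p = 0.1933, limma with Benjamini-Hochberg adjustment). In stressed mice Gclc had 87.3, 89.8, 89.4 and 81.2 CPM in IP and 86.9, 86.3, 84.0 and 89.8 CPM in INPUT, a log2 ratio of 0.00 (95% confidence interval −0.12 to 0.13). The call for Gclc depended on scaling: with libraries rescaled by the median ratio it passed as higher in IP at 0.73 in naïve and 0.63 in stressed mice.

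Gclm (chromosome 3, 122245557 to 122270732), the modifier subunit that raises the activity of the ligase, had 74.9, 82.7, 70.7 and 69.2 CPM in naïve IP and 29.2, 28.6, 25.8 and 32.4 CPM in naïve INPUT. The groups were apart, with a log2 ratio of 1.36 (standard error 0.08, adjusted p = 1.725e-09, limma with Benjamini-Hochberg adjustment). In stressed mice it had 75.9, 76.7, 84.5 and 87.5 CPM in IP and 26.3, 29.2, 26.9 and 26.8 CPM in INPUT, and the log2 ratio was 1.57. Set against Gclc per kb of exon, Gclm reached a ratio of 0.507 ± 0.0301 in naïve IP and 0.560 ± 0.0611 in stress IP, compared with 0.210 ± 0.0244 in naïve INPUT and 0.188 ± 0.0110 in stress INPUT (SD, n = 4). All 8 IP libraries had 0.474 or more and all 8 INPUT libraries 0.228 or less. This ratio cancels the library total, so it does not depend on scaling by a factor per library, such as median ratio scaling. Quantile normalization is not of that kind. The antisense transcript Gm17494 and the pseudogene Gm6061, which lies on the same strand, overlap the span of Gclm. The small RNA gene Gm24996 does so for Nfe2l2, and none of these is in the tables. Whether they overlap exons of Gclm or Nfe2l2 was not determined.

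Gstm1 (chromosome 3, 108012255 to 108017973), a glutathione transferase of the mu class, had the highest ratio of the 10. Its naïve IP libraries held 757, 818, 804 and 776 CPM and its naïve INPUT libraries 88.3, 84.8, 95.0 and 94.0 CPM. Every IP library was several times above every INPUT library, with a log2 ratio of 3.12 (standard error 0.05, adjusted p = 1.106e-14, limma with Benjamini-Hochberg adjustment). In stressed mice the values were 774, 755, 920.4 and 717 CPM in IP and 77.3, 88.9, 85.1 and 94.3 CPM in INPUT, a log2 ratio of 3.19. Only uniquely mapped reads were counted and the mu class genes are close in sequence, so reads shared between them are missing from these values. The other mu class genes tested spread widely in naïve mice, at 2.40 for Gstm5, 1.69 for Gstm6, 0.09 for Gstm4, −0.18 for Gstm7 and −0.73 for Gstm2. Of these, Gstm5 and Gstm6 passed, and Gstm4 and Gstm7 passed as higher after median ratio scaling (0.71 and 0.46) and after quantile normalization (1.00 and 0.54). Gstm2 did not pass under any of the 3 scalings, and was at 0.61 after quantile normalization.

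Prdx6 (chromosome 1, 161240112 to 161251219), a peroxiredoxin that uses glutathione to reduce peroxides and peroxidised lipids, had 938, 929, 863 and 879.8 CPM in naïve IP. In naïve INPUT it had 132, 117, 119 and 119 CPM, all far below the IP libraries. The log2 ratio was 2.89 (standard error 0.05, adjusted p = 2.137e-14, limma with Benjamini-Hochberg adjustment). Stressed mice had 875, 1009, 1001 and 965 CPM in IP and 132, 125, 106 and 125 CPM in INPUT, a log2 ratio of 2.98.

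The selenium-dependent glutathione peroxidases Gpx1 and Gpx4 were lower in IP. Gpx1 (chromosome 9, 108338903 to 108340343), the cytosolic enzyme for hydrogen peroxide, had 12.6, 10.9, 13.0 and 13.8 CPM in naïve IP and 53.4, 49.7, 58.2 and 48.9 CPM in naïve INPUT. Every IP library was below every INPUT library, with a log2 ratio of −2.06 (standard error 0.09, adjusted p = 5.204e-11, limma with Benjamini-Hochberg adjustment). In stressed mice it had 13.3, 13.1, 15.4 and 16.6 CPM in IP and 56.1, 54.8, 51.4 and 50.1 CPM in INPUT, a log2 ratio of −1.86.

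Gpx4 (chromosome 10, 80047166 to 80056439), which reduces lipid peroxides in membranes, had 14.5, 13.4, 10.9 and 12.4 CPM in naïve IP and 25.0, 23.6, 27.2 and 21.7 CPM in naïve INPUT. The groups were apart, with a log2 ratio of −0.93 (standard error 0.10, adjusted p = 1.57e-06, limma with Benjamini-Hochberg adjustment), which was −0.29 relative to the median of all genes. In stressed mice it had 11.1, 15.3, 14.8 and 11.0 CPM in IP and 31.3, 23.3, 19.5 and 22.8 CPM in INPUT, a log2 ratio of −0.88. With median ratio scaling the ratio in stressed mice was −0.25 and no longer passed (adjusted p = 0.116, limma with Benjamini-Hochberg adjustment). The processed copies Gpx4-ps2 and Prdx6-ps2 are annotated elsewhere in the genome, and reads shared with them are not in the values of Gpx4 and Prdx6.

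Prdx6 and Gpx1, the pair at opposite ends among the peroxide-reducing enzymes in naïve mice, were compared within each library after their values were seen, as a description. In stressed mice Gpx1, at −1.86, was not the lowest, as the glutathione peroxidase list reached down to −2.17. Per kb of exon, Prdx6 was 21.7 ± 2.91 times Gpx1 in naïve IP and 19.9 ± 2.32 times in stress IP, and 0.698 ± 0.0579 times in naïve INPUT and 0.689 ± 0.0526 times in stress INPUT (SD, n = 4). With the longest transcript lengths the same ratios were 30.4, 27.9, 0.976 and 0.962. Prdx6 thus had more reads per length than Gpx1 in every IP library. In INPUT the order depended on the length used: Prdx6 was below Gpx1 in all 8 libraries per kb of exon, and with the longest transcript it was above in naïve INPUT replicates 3 and 16 and stress INPUT replicate 12, at 1.04, 1.02 and 1.04 times.

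**Figure D2:**
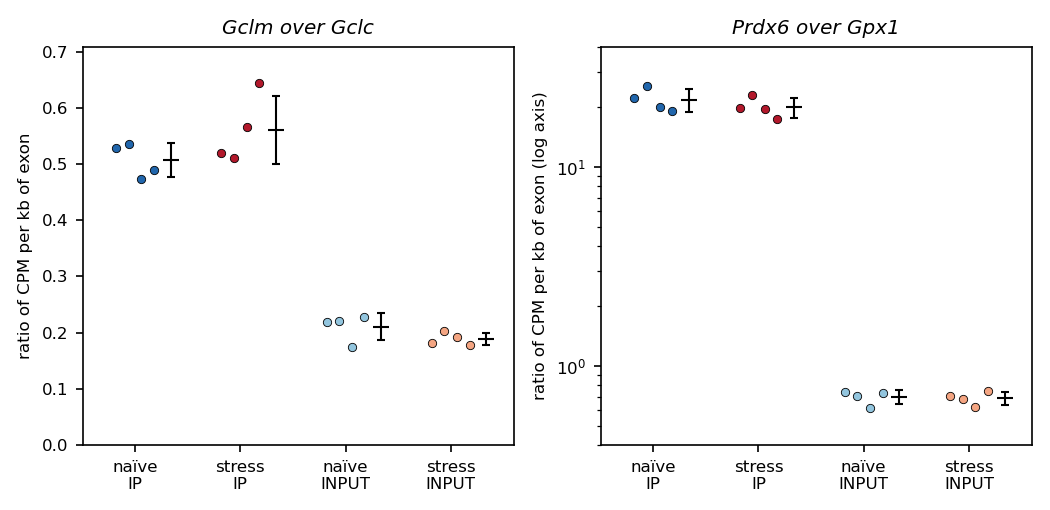
Ratio of CPM per kb of exon of Gclm to Gclc (left, axis from 0) and of Prdx6 to Gpx1 (right, log axis) in each library (points), with mean ± SD, for IP and INPUT of naïve and stressed mice. IP libraries lie above INPUT libraries without overlap in both panels, at 0.474 or more against 0.228 or less for Gclm to Gclc, and stress and naïve libraries of one fraction lie beside each other.

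Srxn1 (chromosome 2, 152105516 to 152111376), sulfiredoxin, which restores overoxidised peroxiredoxins of the 2-Cys kind, also was lower in IP. It had 32.9, 31.1, 26.7 and 35.5 CPM in naïve IP and 101, 108, 106 and 104 CPM in naïve INPUT. The log2 ratio was −1.73 (standard error 0.08, adjusted p = 9.717e-11, limma with Benjamini-Hochberg adjustment), and the groups were far apart. In stressed mice it had 27.4, 36.1, 29.9 and 31.3 CPM in IP and 116, 115, 116 and 111 CPM in INPUT, a log2 ratio of −1.88.

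Hmox1 (chromosome 8, 75093621 to 75100589), the inducible heme oxygenase, was the least abundant of the 10. It had 9.20, 6.58, 8.30 and 8.06 CPM in naïve IP and 3.16, 4.59, 3.44 and 4.53 CPM in naïve INPUT. The groups did not overlap, and the log2 ratio was 1.02 (standard error 0.16, adjusted p = 3.506e-05, limma with Benjamini-Hochberg adjustment). In stressed mice it had 8.88, 7.40, 8.63 and 8.20 CPM in IP and 4.64, 5.98, 4.88 and 5.24 CPM in INPUT, and the log2 ratio was 0.67 (standard error 0.13). Markers of microglia, cells known to express Hmox1, were lower in IP, with a sum of 18.6 to 23.3 CPM in naïve IP against 197 to 215 CPM in naïve INPUT. Other lists held markers higher in naïve IP, the erythroid gene tested at 2.59 and 1 marker each of the mural, meningeal fibroblast and choroid plexus lists. The part of other cell types in the values of Hmox1 was not tested.

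In stressed mice the counts were the same as in naïve mice, 6 higher, 3 lower and 1 (Gclc) not passing, where 23.6% of 13333 genes were higher and 62.5% lower, and again 9 did not overlap, as in 81.4% of all genes. Both sets of ratios are shown side by side in the plot of IP over INPUT, and the difference between them equals the difference between the 2 stress effects tested further on.

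**Figure D3:**
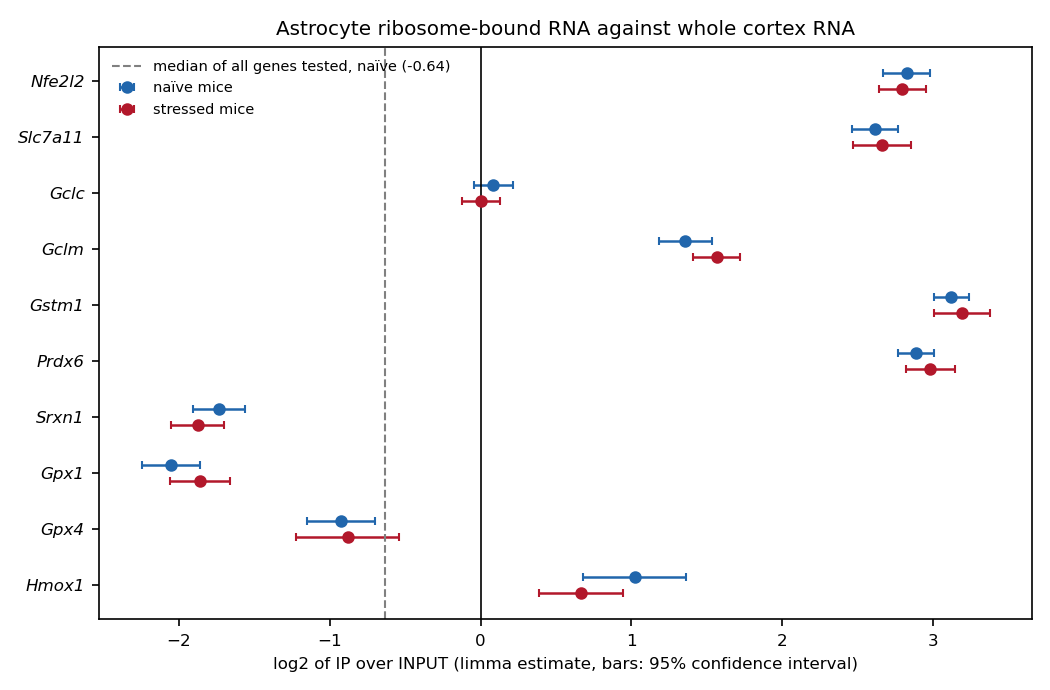
Log2 ratio of IP over INPUT (horizontal axis) of the 10 genes in naïve and in stressed mice, as limma estimates with 95% confidence intervals, with the median of all genes tested in naïve mice (−0.64) as a dashed line. Gstm1, Prdx6, Nfe2l2 and Slc7a11 lie above 2 in both, Gclc lies near 0, and the estimates of Srxn1, Gpx1 and Gpx4 lie below the dashed line.

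The wider system was described with 8 lists of 109 genes in all, 10 of them the genes above. In naïve mice 94 of the 109 were tested, 44 were higher and 29 lower in IP, and their median log2 ratio was 0.23 against −0.64 over all genes. The counts were 66 higher and 18 lower after median ratio scaling and 67 and 20 after quantile normalization. With median ratio scaling the direction of genes between about −0.64 and 0 can turn. Quantile normalization moves genes by unlike amounts, so genes below −0.64 can turn as well. Gstm2 was such a gene, at 0.61 after quantile normalization, without passing. In the list of glutathione synthesis and turnover (22 genes, 21 tested) 10 were higher and 4 lower. Its highest was Cbs, the first enzyme of the route from homocysteine to cysteine, with 263 ± 28.9 CPM in naïve IP and 19.4 ± 2.37 CPM in naïve INPUT, a log2 ratio of 3.76. Its lowest was Slc1a1, a glutamate transporter that also carries cysteine into neurons, with 8.04 ± 0.509 and 125 ± 2.87 CPM, a log2 ratio of −3.95. The synthetase Gss and the reductase Gsr, which finish and recycle glutathione, did not pass, at 0.23 and −0.01, but passed as higher after median ratio scaling at 0.87 and 0.63 and after quantile normalization at 0.99 and 0.57.

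Among 24 glutathione transferases, 16 were tested, 10 were higher and 3 lower, with Gstm1 highest and Mgst3, a membrane-bound transferase, lowest at −3.24. Of 8 glutathione peroxidases only 5 passed the filter on low values, 1 was higher (Gpx8, 5.50 ± 1.12 against 2.89 ± 0.444 CPM, log2 ratio 0.90) and 3 lower (Gpx1, Gpx3 and Gpx4). In the thioredoxin and peroxiredoxin list of 20 genes, 19 were tested, 7 were higher and 6 lower, from Prdx6 at the top to Srxn1 at the bottom. After median ratio scaling this list had 13 higher and 3 lower, and after quantile normalization 14 and 4. Under both scalings the peroxidases had 2 higher and 3 lower, and the transferases 13 higher and 1 lower. The peroxiredoxins that Srxn1 serves had ratios of 1.97 for Prdx1, 0.42 for Prdx2, 0.69 for Prdx3 and 0.03 for Prdx4, and the last did not pass, but did as higher after median ratio scaling (0.66) and quantile normalization (0.89). Of 5 genes of superoxide and catalase, 4 were higher and 1 lower, led by the extracellular dismutase Sod3 at 3.09, whereas the mitochondrial Sod2 was at −0.42 and turned to 0.23 after median ratio scaling, which passed, and to 0.04 after quantile normalization, which did not.

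In the heme and iron list all 8 genes were tested, 3 were higher (Blvrb at 1.27, Hmox1 and Tfrc) and 5 lower, down to the ferritin heavy chain Fth1, which had 109 ± 18.6 CPM in naïve IP and 810.4 ± 75.6 CPM in naïve INPUT, a log2 ratio of −2.90. The list of NADPH and quinone enzymes (11 genes, 10 tested) had 8 higher and 1 lower, from Aox1 at 3.02 to Cbr1 at −0.20, which turned to 0.44 after median ratio scaling and 0.36 after quantile normalization, with a list median of 1.62. Its members Idh1 (2.41), G6pdx (1.72) and Me1 (1.63) make the NADPH that glutathione reductase consumes. In stressed mice 96 of the 109 genes were tested, with 49 higher and 31 lower in IP.

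**Figure D4:**
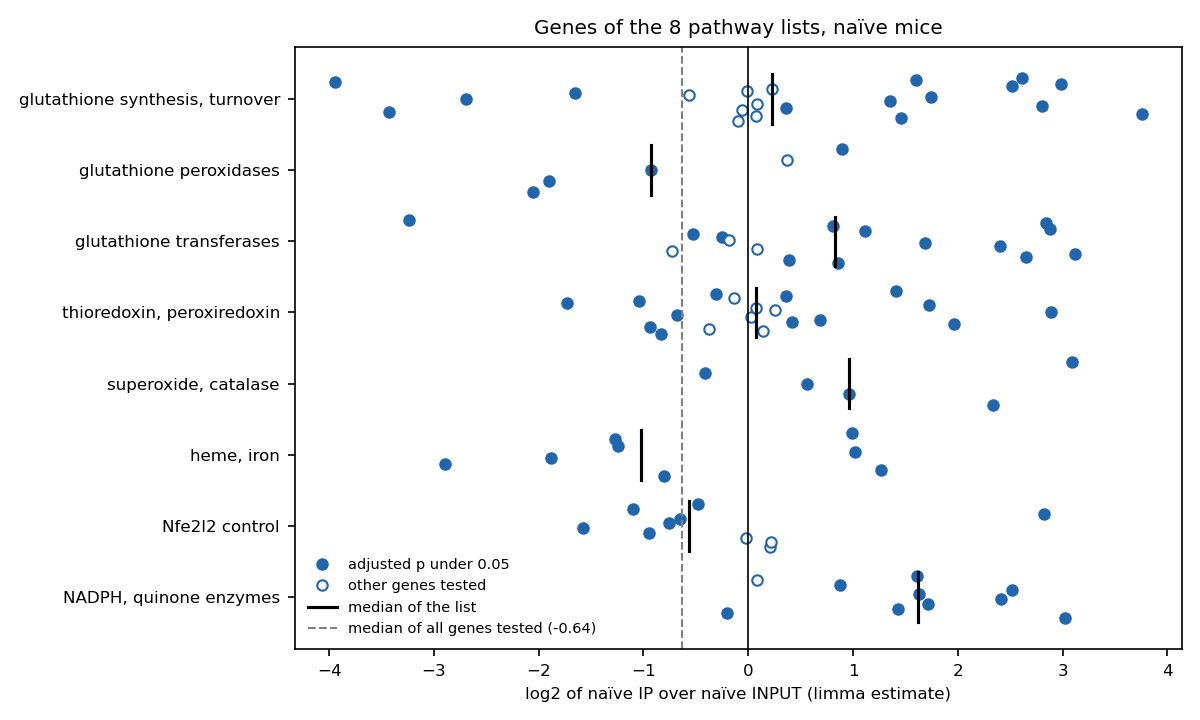
Log2 ratio of naïve IP over naïve INPUT (horizontal axis) for each gene tested in the 8 lists (rows), filled where limma's adjusted p was under 0.05, with the median of each list as a bar and that of all genes (−0.64) as a dashed line. The NADPH and quinone list has the highest median at 1.62, and the medians of the heme and iron list and the peroxidases lie below the dashed line.

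The effect of swim stress was then compared within each fraction. In IP, 0 of the 10 genes differed between stressed and naïve mice by limma with Benjamini-Hochberg adjustment, where 0.440% of 12501 genes passed, and 0 had an unadjusted p under 0.05, where 8.27% of all genes did. limma-voom on the recovered reads also called 0. The log2 differences ran from −0.02 to 0.21, adjusted p-values from 0.6716 to 0.9987, and the ranges of the stress and naïve libraries overlapped for all 10 genes, as the values given above show, where 5.00% of all genes did not overlap. The 95% confidence intervals reached at the widest from −0.28 (Gpx4) to 0.45 (Gpx1), which corresponds to 0.825-fold and 1.37-fold.

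Within these limits the genes differed in precision. Gclc was the most tightly measured in IP, at −0.01 (95% confidence interval −0.14 to 0.11), and Gstm1 stood at 0.00 with an interval from −0.16 to 0.16. Nfe2l2 was at 0.04 (−0.10 to 0.17), Slc7a11 at 0.08 (−0.09 to 0.24) and Prdx6 at 0.09 (−0.04 to 0.22). For Gclm the difference was 0.13 (−0.04 to 0.29), and for Gpx1 it was 0.21 (−0.03 to 0.45), the furthest from 0 in IP. Srxn1 was at −0.02, Gpx4 at 0.02 and Hmox1 at 0.05, with intervals reaching 0.32 for the last 2. In stress IP, Gstm1 of replicate 6 (920.4 CPM) stood above the other 3 libraries (717 to 774 CPM). Beside these values, the stress differences of the 6 neuron markers in IP ran from −0.33 to −0.21, and those of the 8 astrocyte markers from −0.07 to 0.25. None of these markers passed, and the part of other cell types in the IP values was not tested.

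In INPUT, 0 of the 10 genes passed by limma with Benjamini-Hochberg adjustment, where 0.0442% of 13577 genes did, and limma-voom also called 0. Unadjusted p-values under 0.05 were reached by 2 of the 10, Srxn1 and Hmox1, where 5.03% of all genes reached them, and these were also the 2 whose groups did not overlap, where 2.87% of all genes did not. Srxn1 went from 105 ± 2.87 CPM in naïve INPUT to 114 ± 2.57 CPM in stress INPUT (SD, n = 4 each), a log2 difference of 0.13 (95% confidence interval 0.02 to 0.23), with an adjusted p of 0.9052 from limma with Benjamini-Hochberg adjustment. Hmox1 went from 3.93 ± 0.735 to 5.19 ± 0.585 CPM, a log2 difference of 0.40 (0.06 to 0.75), with an adjusted p of 0.9151 from the same fit. Its lowest stress value, 4.64 CPM, lay just above its highest naïve value, 4.59 CPM, and these values rest on 56 to 140 reads per library. Neither difference passed the adjustment over all genes.

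The other 8 genes in INPUT had log2 differences from −0.08 (Gclm) to 0.07 (Gclc) and overlapping groups. Beside these values, the microglia markers summed to 170 to 209 CPM in stress INPUT and 197 to 215 CPM in naïve INPUT, the endothelial markers to 51.2 to 75.3 and 63.7 to 90.5 CPM, and the neuron markers to 9734 to 11400 and 9884 to 10322 CPM. The meningeal fibroblast markers summed to 74.3 to 103 CPM in stress INPUT and 63.7 to 91.4 CPM in naïve INPUT. For the erythroid markers the sums were 2.56 to 6.84 and 1.30 to 3.36 CPM. Those of the astrocyte markers were 5436 to 5996 and 5945 to 6324 CPM, and those of the oligodendrocyte markers 1380 to 1573 and 1547 to 1706 CPM. The mural markers gave 109 to 138 and 113 to 136 CPM, and the choroid plexus markers 4.44 to 6.39 and 4.06 to 17.5 CPM. The part of these cell types in the values of Hmox1 and Srxn1 was not tested. The difference between the stress effect in IP and that in INPUT was tested over all 16 libraries, and 0 of the 10 genes passed by limma with Benjamini-Hochberg adjustment, where 0.0225% of 13341 genes did, and limma-voom also called 0. An unadjusted p under 0.05 was reached by 0 of the 10 and by 4.71% of all genes. The differences furthest from 0 were −0.35 for Hmox1 (95% confidence interval −0.78 to 0.07) and 0.21 for Gclm (−0.02 to 0.44).

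**Figure D5:**
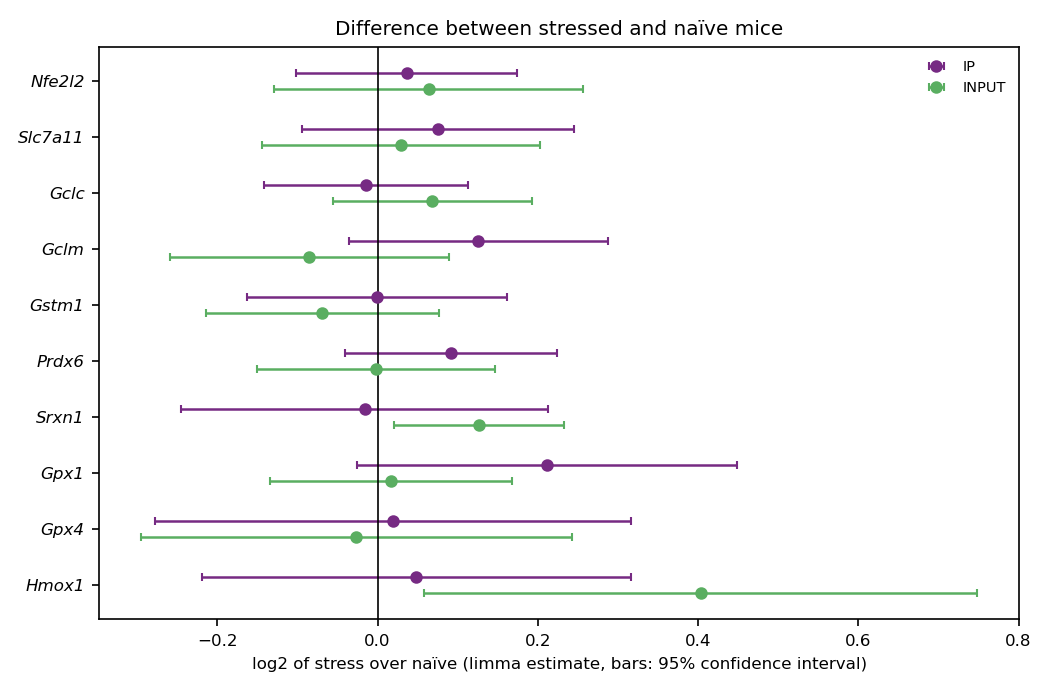
Log2 difference of stressed minus naïve mice (horizontal axis) of the 10 genes in IP and in INPUT, as limma estimates with 95% confidence intervals. All 10 IP intervals include 0, and in INPUT only those of Srxn1 and Hmox1 do not, before adjustment over all genes.

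Of the 109 genes of the 8 lists, 91 were tested for stress in IP and 96 in INPUT, and 0 passed in either by limma with Benjamini-Hochberg adjustment. Unadjusted p-values under 0.05 were reached by 6 of the 91 genes in IP, where 8.27% of all genes tested reached them. The furthest was Sesn1, a sestrin under the control of p53 and FOXO factors, named here after its values were seen, with 74.3 ± 12.4 CPM without and 99.9 ± 7.02 CPM with stress, a log2 difference of 0.44 and an adjusted p of 0.1396 from limma with Benjamini-Hochberg adjustment. In INPUT 5 of the 96 genes did so, a share near the 5.03% of all genes: Srxn1, Hmox1, Cndp2, Maff and Mafk, again named after their values were seen. Mafk, a small MAF protein that pairs with NRF2 and with BACH1, had 8.93 ± 1.18 CPM in naïve INPUT and 12.0 ± 1.83 CPM in stress INPUT. Its log2 difference was 0.42, with an adjusted p of 0.6 from the same test. Maff had 0.845 ± 0.323 and 1.51 ± 0.294 CPM, a log2 difference of 0.81 that did not pass. Its values rest on few reads, at most 22 in a naïve INPUT library and 40 in a stress INPUT library.

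For each of the 10 genes, the 2 genes whose log2 level varied most like it over the 16 libraries were found among 9537 genes with a mean above 10 CPM, by the root mean square difference of values centred on each gene's own mean. Since the 16 libraries fall into IP and INPUT, likeness mostly describes a similar ratio between the fractions. The closest were Acsl6 and Sfxn5 for Prdx6 (0.0753 and 0.0781 on the log2 scale), Add3 and Aldh7a1 for Nfe2l2 (0.0873 and 0.0962), Trpm3 and Fads1 for Gstm1 (0.0933 and 0.0981) and Tnfrsf19 and Pgm2 for Slc7a11 (0.0976 and 0.0986). For Gclc they were Cstf2t and Eif3d (0.0604 and 0.0623), and for Gclm Arhgap12 and Sdc2 (0.0877 and 0.0972). Those for the genes lower in IP were Gpr137 and Rrp7a for Srxn1 (0.0829 and 0.0885), Gabra4 and Atp6v0e2 for Gpx1 (0.0904 and 0.107), and Rpl8 and Wdr74 for Gpx4 (0.124 and 0.126). Hmox1, the gene with fewest reads, had no match as close, with Pm20d2 and Prkx at 0.191 and 0.195. None of the 10 genes had another of the 10 among its nearest 2.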

How the data were processed

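Per the labels and methods, reads were mapped to mm10 (STAR), and uniquely mapped fragments on RefSeq genes were counted (HTSeq). The authors deposited one table of log2 CPM per library, scaled to that library's total, with a small constant worth 0.25 reads at mean library size and no correction for gene length. Versions are not given in the sources used here. The floor of −6.40 stands for 0 reads, and 100% of values came out as whole reads within 0.02. No library equalled another.

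CPM without the constant were compared as log2(CPM + 0.1) with limma 3.58.1 in R 4.3.3 (lmFit, eBayes with trend) over all genes whose mean exceeded 1 CPM in the libraries of the comparison, at a Benjamini-Hochberg adjusted p under 0.05. The pseudocount makes fold changes of low genes smaller. Stress was tested against naïve in each fraction, and IP against INPUT in each treatment (8 libraries each), and the difference of the stress effects on all 16. Libraries were treated as independent. Intervals are those of the fit at 95%, and depth covers counting error only.

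The 10 genes, the 8 gene lists and the markers were chosen with earlier results of these data known. Named beyond the 10 genes are the highest and lowest called gene of each list in naïve mice, the 2 nearest genes by likeness, and genes of the lists chosen for their role or after their values were seen (Keap1, Slc3a2, Gss, Gsr, Gpx3, Tfrc, Idh1, G6pdx, Me1, Prdx1 to Prdx4, the mu class transferases, Sesn1, Cndp2, Maff and Mafk). GENCODE M21 (GRCm38, the same assembly as mm10) gave positions and exon lengths, and RefSeq (GRCm38.p6) the promoter windows. Alternatives were a pseudocount of 1, no filter, median ratio scaling, quantile normalization, limma-voom on recovered reads, array weights, no variance trend, Xist as a covariate (expressed in 2 of 4 libraries of each group), each library left out, and the longest transcript length. Tables were made in Python 3.11.15 with pandas 2.3.3 and NumPy 2.4.6, and plots with matplotlib 3.10.9.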

Additional observations from a re-analysis of the deposited data

Results flagged for a closer look

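Among the 40 groups of 4 libraries checked (10 genes in 4 groups), 1 library stood apart from the others of its group, where chance gives about 2. Prdx6 in naïve INPUT replicate 3 had 132 CPM (132.03), whereas the other 3 naïve INPUT libraries lay between 117 and 119 CPM, so that the gap was 0.880 of the whole range. Without this library the log2 difference of Prdx6 between stress and naïve INPUT was 0.04 in place of 0.00, and it did not pass in either case.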

How the results depend on the processing

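No paired analysis was possible because the groups share no replicate numbers and the labels do not tie IP to INPUT libraries by mouse. Over all alternatives 0 of 560 values of the 10 genes passed in the stress comparisons or their difference (limma with Benjamini-Hochberg adjustment, smallest adjusted p = 0.4229). The count of all genes past the threshold moved more. For stress in IP (55) it was 143 with array weights and 19 without a variance trend, for stress in INPUT (6) it was 50 and 0, and for the difference of the stress effects (3) it was 19 with array weights. The cause was not tested. With each library left out these counts ran from 17 to 122 in IP (122 without naïve IP replicate 11, 101 without stress IP replicate 15), from 1 to 32 in INPUT (32 without naïve INPUT replicate 14, 18 without stress INPUT replicate 9) and from 2 to 28 for the difference (28 without naïve IP replicate 11).

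The median log2 ratio of IP over INPUT of the 10 genes was 1.83 with median ratio scaling and 1.90 with quantile normalization in naïve mice (1.19 as reported), and 1.74 and 1.81 in stressed mice (1.12), since both set the median of all genes near 0. Under both, Gclc passed as higher in IP (quantile values 0.60 and 0.52), and Gpx4 in stressed mice did not pass (−0.25 and −0.26, adjusted p of 0.116 and 0.113 from limma with Benjamini-Hochberg adjustment). All other IP over INPUT calls of the 10 genes kept their direction and their side of the threshold.

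Stress differences near 0 changed sign without passing. Gstm1 in IP was 0.00065 with median ratio scaling and 0.048 with array weights. With each library left out, the range in IP was −0.031 to 0.018 for Gclc, −0.064 to 0.094 for Gpx4, −0.094 to 0.044 for Srxn1, −0.043 to 0.12 for Hmox1, −0.075 to 0.045 for Gstm1 and −0.0065 to 0.083 for Nfe2l2. In INPUT it was −0.022 to 0.10 for Slc7a11, −0.017 to 0.067 for Gpx1, −0.16 to 0.070 for Gpx4 and −0.041 to 0.061 for Prdx6. The IP over INPUT ratio of Gclc in stressed mice ran from −0.013 to 0.035. For the difference of the stress effects it was −0.027 to 0.11 for Slc7a11, −0.051 to 0.18 for Gpx4, −0.0066 to 0.11 for Gstm1, −0.070 to 0.028 for Nfe2l2 and −0.032 to 0.10 for the median of the 10 genes. Hmox1 rested on the fewest reads, 56 to 212 per library, so depth limits it most among the 10 genes.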
